A study of Canis lupus familiaris with 5 samples.

Results

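The glucocorticoid receptor gene NR3C1 and 4 genes known to be induced through it, FKBP5, TSC22D3, ANXA1 and TXNIP, were followed across 5 canine lymphoid tumour cell lines. They were taken by gene symbol: every probe set annotated to 1 of the 5 symbols was used, which gave 12 of the 42924 probe sets and 5 of the 15115 genes on the array, and no gene was without a probe set. Transcripts were measured by hybridising RNA to Affymetrix canine arrays, 1 per line, from lines grown in RPMI with 10% FBS and given no treatment. The lines labelled B were 17-71, a B-lymphoid malignancy, and GL-1, a B-cell leukemia (n = 2). The lines labelled T were CL-1, a primitive a/b T-cell leukemia, CLGL-90, a large granular lymphocyte (LGL) leukemia, and CLL-1390, a primitive T-cell leukemia (n = 3). Each line is a culture derived from a tumour, none has a second array, and p-values between the labels therefore measure only the spread between these lines. No glucocorticoid was added, and whether steroids had been removed from the serum is not given in the sources used here, so the values are levels in ordinary culture and not responses to a hormone.

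The glucocorticoid receptor is a transcription factor that waits in the cytoplasm, bound to the chaperone HSP90, until cortisol or a drug such as prednisolone binds it. It then enters the nucleus, binds DNA and raises or lowers the transcription of its target genes. In lymphoid cells this programme can stop growth and cause cell death, which is why glucocorticoids are used against lymphoma and leukaemia in dogs and in people. FKBP5 is a co-chaperone that binds HSP90 and lowers the receptor's affinity for hormone, and is itself induced by the receptor. TSC22D3, also called GILZ, is a leucine zipper protein that restrains inflammatory transcription factors. ANXA1, also called lipocortin, is a phospholipid-binding protein with anti-inflammatory action. TXNIP is an alpha-arrestin that binds thioredoxin and limits glucose uptake, and its gene responds to glucose as well as to glucocorticoids.

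Values are the deposited log2 GCRMA values per probe set. Array medians ran from 6.87 in CL-1 to 6.996 in CLGL-90. The 59 control probe sets for sequences that dogs lack reached at most 6.39 to 6.76 per array. This top control value is called the background ceiling of an array, and a value not above it was read as background. The labels were checked on lineage markers. Of the 6 B-lineage markers on the array, 2 lay above the ceiling in each B-labelled line, and CD79B, CD22 and MS4A1 did not in either. T-labelled CLGL-90 had 3 of the 6 above it, more than either B-labelled line, and CL-1 and CLL-1390 had 1 each. Of the 7 T-lineage markers, 3 did in 17-71, with CD2 at 11.42, and 5 in GL-1, with CD3D at 9.78 and CD3G at 10.01. In the T-labelled lines 7 did in CLGL-90, 5 in CLL-1390 and 3 in CL-1, where CD3D, CD3G, CD2 and CD7 did not. These counts took CD3E by its brightest probe set. The other CD3E probe set was not above the ceiling in 17-71 (5.92), GL-1 (6.18) and CL-1 (5.53). It read 12.80 in CLGL-90 and 8.58 in CLL-1390. CD5 was counted in every line and varied by 0.52. Neither marker set separated the labels, which are therefore used as names of groups.

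The 5 genes did not follow a common pattern over the lines. ANXA1 was abundant in 4 lines and far lower in CLL-1390, at background there by 2 of its 3 probe sets. TSC22D3 and TXNIP were highest in 17-71 and lowest in CL-1, NR3C1 was highest in CL-1, and FKBP5 varied least and was lowest in 17-71. A range over the 5 lines of at least log2 2 was reached by 4 of the 5 genes (taking for each gene the probe set with the highest mean), against 14.2% of the 14162 genes tested. The ranges were 7.56 for ANXA1, 5.11 for TSC22D3, 3.42 for TXNIP, 2.07 for NR3C1 and 1.46 for FKBP5. NR3C1 stood close to the limit, and a further quantile normalization put its range at 1.89. The ANXA1 range rests on a background value, and is 5.97 with the ceiling as a floor. As measured, ANXA1 varied more than 99.8% of genes tested, TSC22D3 more than 98.1%, TXNIP more than 94.6%, NR3C1 more than 86.8% and FKBP5 more than 76.0%. All 5 means, 9.40 to 10.84, lay above those of at least 72.8% of genes tested. Of the 12 probe sets, 9 stayed above the ceiling in every line. Because the genes were picked with earlier results of these data known, these counts are descriptions.

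**Figure D1:**
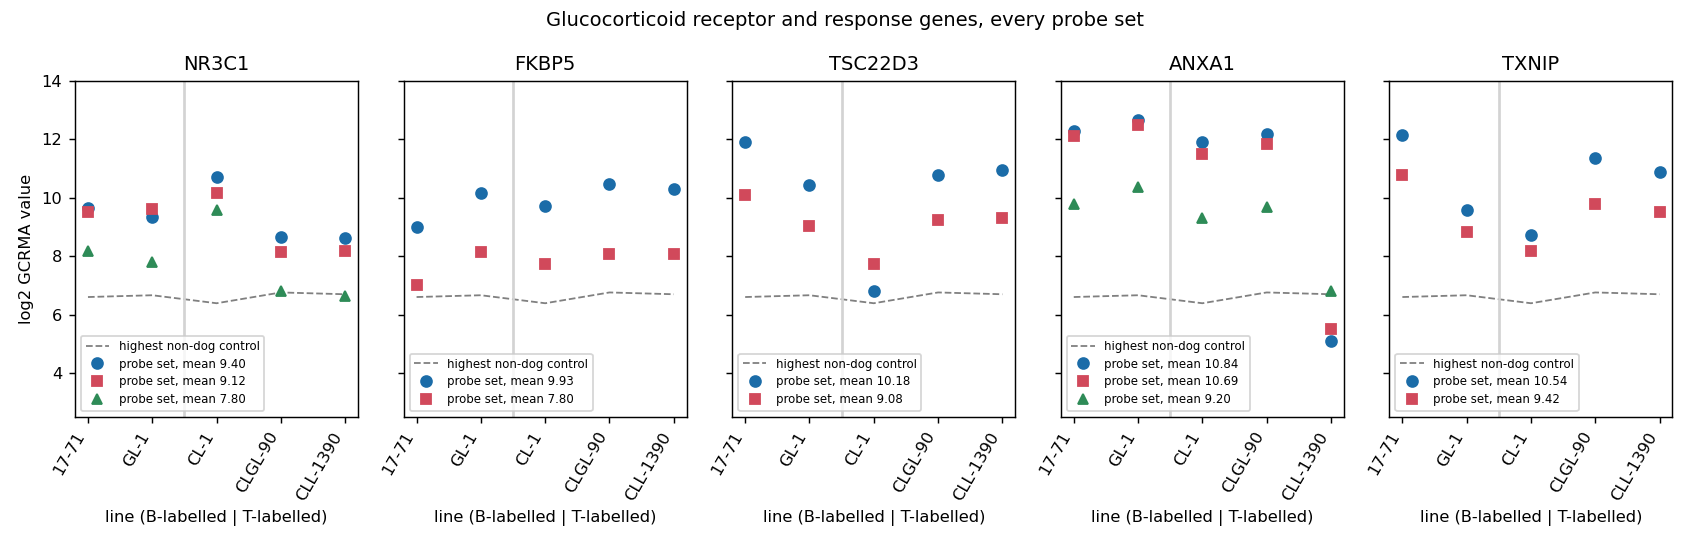
Log2 GCRMA value (vertical axis) of each of the 12 probe sets in each of the 5 lines (horizontal axis, B-labelled lines left of the grey bar, T-labelled lines right of it), with 1 panel per gene, 1 symbol per probe set, and a dashed line at each array's background ceiling. ANXA1 drops in CLL-1390 by all 3 probe sets, TSC22D3 and TXNIP are lowest in CL-1, and NR3C1 is highest in CL-1.

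**Figure D2:**
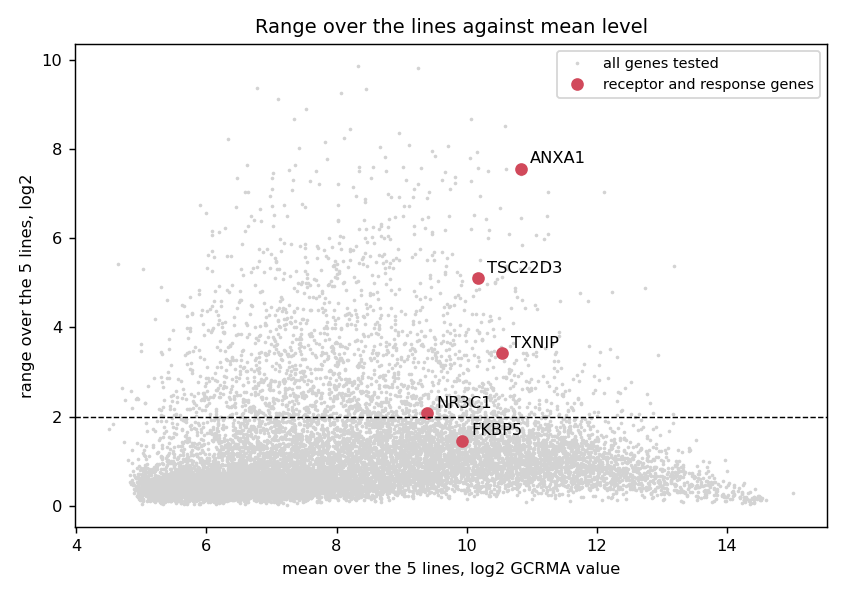
Range over the 5 lines (vertical axis, log2) against the mean over the 5 lines (horizontal axis, log2 GCRMA value) for the 14162 genes tested (grey) and the 5 receptor and response genes (red). The dashed line marks a range of log2 2, which ANXA1, TSC22D3, TXNIP and NR3C1 exceed and FKBP5, at 1.46, does not.

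NR3C1, the receptor itself, gave signal in every line. By its probe set of highest mean it stood at 9.66 in 17-71, 9.33 in GL-1, 10.70 in CL-1, 8.65 in CLGL-90 and 8.63 in CLL-1390. A second probe set read 9.51 in 17-71, 9.61 in GL-1, 10.16 in CL-1, 8.14 in CLGL-90 and 8.16 in CLL-1390. CL-1 was highest, 17-71 and GL-1 lay in between, and CLGL-90 and CLL-1390 were lowest by both probe sets. The third kept this grouping with a wider range, from 9.58 in CL-1 down to 6.63 in CLL-1390, which is below that array's ceiling (6.70). The order of 17-71 and GL-1, and of CLGL-90 and CLL-1390, changed between probe sets, while the other 8 of the 10 pairs of lines had the same order by all 3. CL-1 lay above CLL-1390 by 2.07 and 1.998 in the first and second probe sets, and above CLGL-90 by 2.02 to 2.76 over all 3. It exceeded the next line by 1.04, 0.55 and 1.41 in the 3 probe sets. A gap of at least log2 1, which the second did not reach, was found for CL-1 in 3.5% of genes tested.

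FKBP5, the co-chaperone, was the steadiest of the 5 genes. It stood at 9.00 in 17-71, 10.16 in GL-1, 9.73 in CL-1, 10.46 in CLGL-90 and 10.30 in CLL-1390. The other probe set was dimmer, at 7.01 in 17-71, 8.13 in GL-1, 7.73 in CL-1, 8.07 in CLGL-90 and 8.08 in CLL-1390. Both put 17-71 lowest, by 0.73 and 0.72 under CL-1, and CL-1 second lowest. 17-71 was lowest by at least log2 0.5 in 2.97% of genes tested, and by any margin in 17.7%. The order of GL-1, CLGL-90 and CLL-1390 differed between the probe sets, so these 3 lines were not separated. 17-71, lowest in FKBP5, was highest in TSC22D3 and TXNIP.

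TSC22D3 was low in CL-1. By its probe set of highest mean it read 6.81 in CL-1, just above that array's ceiling (6.39), against 11.92 in 17-71, 10.45 in GL-1, 10.78 in CLGL-90 and 10.94 in CLL-1390. The other probe set read 7.73 in CL-1, against 10.11 in 17-71, 9.02 in GL-1, 9.22 in CLGL-90 and 9.30 in CLL-1390. Both probe sets gave the same order of all 5 lines, with CL-1 lowest and 17-71 highest. They differed in size: CL-1 lay 3.64 under the next line by the first and 1.29 by the second, and the spread from CL-1 to 17-71 was 34.5-fold by the first and 5.19-fold by the second. Why the probe sets differ was not tested. CL-1 was lowest by at least log2 2 in 0.395% of genes tested. It was the lowest line, by any margin, in 36.9% of them.

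TXNIP had the same lines at its ends. By its first probe set it stood at 12.14 in 17-71, 9.60 in GL-1, 8.71 in CL-1, 11.37 in CLGL-90 and 10.88 in CLL-1390. By the other the values were 10.78 in 17-71, 8.83 in GL-1, 8.16 in CL-1, 9.79 in CLGL-90 and 9.52 in CLL-1390. The order of the 5 lines was the same by both probe sets, and every value lay above the controls. GL-1 stood nearer to CL-1 (0.67 and 0.88 above it) than to 17-71 (1.95 and 2.54 below it). In TSC22D3, by contrast, GL-1 lay close to CLGL-90 and CLL-1390. After each gene was centred on its mean, TSC22D3 and TXNIP were the nearest of the 10 pairs among the 5 genes, with a root mean square difference of log2 0.91 over the 5 lines, against 1.16 for NR3C1 and FKBP5 and 3.604 for TSC22D3 and ANXA1. This measure is small for genes of small range even where their directions are unlike. NR3C1 was lowest in CLGL-90 and CLL-1390, where FKBP5 had its highest values, 10.46 and 10.30.

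ANXA1 was among the brighter genes in 4 lines and low in CLL-1390, where 2 of its 3 probe sets were at background. By its first probe set it read 5.11 in CLL-1390, against 12.30 in 17-71, 12.67 in GL-1, 11.92 in CL-1 and 12.19 in CLGL-90. By the second it read 5.51 in CLL-1390, against 12.13 in 17-71, 12.50 in GL-1, 11.50 in CL-1 and 11.83 in CLGL-90. The third probe set read 6.83 in CLL-1390, just above that array's ceiling of 6.70, against 9.31 to 10.37 in the other lines. All 3 gave the same order of lines, and the other 4 lines lay within 0.76 of each other by the first. Because 2 of the CLL-1390 values were below that array's ceiling (6.70), their gap is a lower bound: with CLL-1390 set at 6.70, ANXA1 was at least 37.2-fold lower there than in CL-1, the next line, by the first probe set and at least 27.9-fold lower by the second. By the third probe set the gap to CL-1 was 5.59-fold. CLL-1390 was lowest by at least log2 2 in 0.254% of genes tested.

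None of the 5 genes passed the test between the lineage labels. The fit was made with limma over all 14162 genes with Benjamini-Hochberg adjustment. Of the 5 genes 0 passed at 0.05, where 0.00706% of genes tested did, and 0 had an unadjusted p under 0.05, where 3.52% did. Of the 12 probe sets, 0 of 12 passed, against 0.0136% of the 36661 tested. The adjusted p was 0.9999 for each gene. ANXA1 averaged 12.48 ± 0.27 in B-labelled lines (SD, n = 2) and 9.74 ± 4.01 in T-labelled lines (SD, n = 3), a difference of 2.75 (SE 2.38, 95% interval -3.49 to 8.98). TSC22D3 averaged 11.18 ± 1.04 in B-labelled lines and 9.51 ± 2.34 in T-labelled lines, a difference of 1.67 (SE 1.46, interval -2.14 to 5.49). TXNIP differed by 0.54 (SE 1.14, interval -2.43 to 3.52), NR3C1 by 0.17 (SE 0.73, interval -1.73 to 2.07) and FKBP5 by -0.58 (SE 0.44, interval -1.73 to 0.57). These intervals are wide, so the data do not show that the labels are alike in these genes.

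ANXA1 was the one gene of the set whose groups did not overlap, B-labelled lines being higher by all 3 probe sets. Groups did not overlap in 15.4% of genes tested, and in 6.12% B-labelled lines were higher. The margin was small: the lower B-labelled value, 12.30 in 17-71, stood beside 12.19 in CLGL-90. Without CLL-1390 the difference in ANXA1 was 0.43. Some myeloid markers had the same direction. Of the 7 on the array, 4 (LYZ, S100A8, S100A9 and SPI1) were higher in B-labelled lines without overlap and not above the ceiling in any of the 3 T-labelled lines. The other 3, CD14, ITGAM and CSF1R, overlapped between the groups and had the higher mean in T-labelled lines. The summed signal of the 7, on the log2 scale, was 13.18 in 17-71 and 12.72 in GL-1, and lay between 9.06 and 9.46 in T-labelled lines. In CL-1 and CLGL-90 ANXA1 stood at 11.92 and 12.19, LYZ at 3.28 and 4.02, and CD14, above the ceiling, at 7.97 and 8.16. The part of myeloid markers in the ANXA1 result was not tested.

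**Figure D3:**
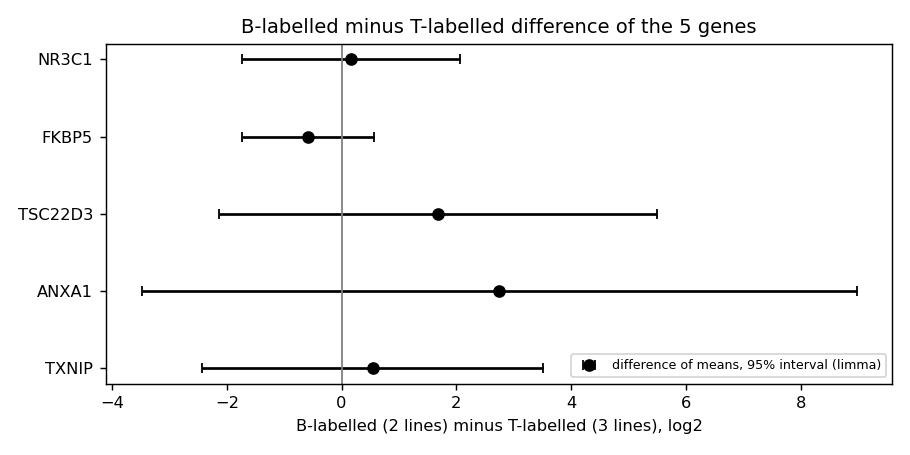
B-labelled minus T-labelled difference (horizontal axis, log2) of the 5 genes (rows), with points for the difference of means of 2 and 3 lines and bars for the 95% interval from limma. Every bar crosses 0, and that of ANXA1 is the widest, from -3.49 to 8.98.

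None of the genes for the machinery that holds and opens the receptor varied by log2 2. Of 16 chaperones and co-chaperones listed, 14 were on the array and tested, and 0 of 14 had a range of log2 2, against 14.2% of genes tested. Their median range was 0.94, beside 0.76 over all genes tested. HSP90AB1, an HSP90 isoform, stood at 13.80 to 14.26 and HSPA8, a constitutive HSP70, at 13.68 to 13.94 over the 5 lines. PTGES3, the p23 co-chaperone, stood at 11.88 to 12.64. FKBP4, the relative of FKBP5 that helps carry the receptor to the nucleus, ranged from 11.75 in GL-1 to 12.49 in CL-1. The median difference between the labels was -0.07, beside -0.03 over all genes tested. BAG1, a co-chaperone known to restrain the receptor, and DNAJB1, an HSP40, had unadjusted p under 0.05 (0.0403 and 0.0246) and did not pass the adjustment by limma. Both read lower in B-labelled lines by their brightest probe set, BAG1 by 0.95 and DNAJB1 by 0.85, but in each gene another probe set had overlapping groups. CL-1, the line highest in NR3C1, was also the highest in 6 of these 14 genes (42.9%), where it was in 23.5% of all genes tested.

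Coregulators connect the receptor to chromatin. Of the 13 tested, 1 had a range of log2 2 (7.69%, against 14.2% of genes tested), and their median range was 0.85, beside 0.76 over all genes. This was CARM1, an arginine methyltransferase, at 9.36 in CL-1 against 6.38 to 6.98 in the other lines. SMARCA4, the ATPase of the SWI/SNF complex, stood at 10.90 to 11.44, NCOR1, a corepressor, at 11.83 to 12.66, and NCOA2, a coactivator, at 7.08 to 8.43. The median difference between the labels was -0.05, and 0 of the 13 passed by limma, adjusted or unadjusted.

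Supply and removal of steroid were measured through 6 genes, 4 of them tested. ABCB1, the efflux pump that carries glucocorticoids among many drugs out of the cell, read 8.96 in CLGL-90, against 4.54 in 17-71, 3.97 in GL-1, 3.96 in CL-1 and 4.21 in CLL-1390. CLGL-90 was the only line above the ceiling. The other 4 values were under log2 5, so ABCB1 missed the filter and was not tested. HSD11B1, which regenerates active cortisol, read 3.94 to 4.47 and was at background in every line. HSD11B2, which inactivates cortisol, read 10.06 to 10.36 over the lines by its brightest probe set and 6.26 to 6.79 by the other 2. Most values of those 2 were not above the ceiling. The probe sets thus disagreed on whether HSD11B2 gave signal in 17-71, GL-1 and CLL-1390. CLGL-90, the line with ABCB1 signal, was also 1 of the 2 lines lowest in NR3C1.

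Other genes that glucocorticoids are known to induce varied widely, in different directions. Of 40 listed, 32 were on the array and tested, and 17 of these (53.1%) had a range of log2 2, against 14.2% of genes tested. By limma 0 of 32 passed, 3 had an unadjusted p under 0.05 (IL1R2, IL7R and KLF6, all higher in B-labelled lines; 3.52% of all genes had), and the median difference between the labels was 0.04. Groups did not overlap in 5 of 32 (15.6%), against 15.4% of all genes. CL-1 was the lowest line in 12 of the 32 (37.5%), beside 36.9% of genes tested. Such ranks include genes whose low values lie at background. Among the 17 variable genes CL-1 was lowest in 8 and highest in 5, where among all variable genes it was lowest in 27.2% and highest in 30.8%.

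Some induced genes were low in CL-1, like TSC22D3. SLA, an adaptor that dampens antigen receptor signalling, read 5.55 in CL-1, against 12.98 in 17-71, 11.59 in GL-1, 11.47 in CLGL-90 and 12.61 in CLL-1390. MT2A, a metal-binding metallothionein, read 4.79 in CL-1, against 10.49 to 12.08 in the others. Metallothionein genes are near copies of each other, so this probe set may also bind relatives. The CL-1 values given for SLA and MT2A lay under that array's ceiling (6.39). With CL-1 set at 6.39, these probe sets put it at least log2 5.08 under the next line in SLA and 4.10 in MT2A. RGS2, a brake on G protein signalling, read 7.32 in CL-1 and 12.83 in CLGL-90, with 9.32 to 10.81 in the other lines. The SLA and RGS2 patterns were seen with every probe set of those genes.

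Others were high in CL-1. SGK1, a kinase that controls ion transport and survival, stood at 10.36 in CL-1, against 5.92 to 7.72 in the other lines, and CL-1 was highest by all 3 probe sets. By the brightest of them, the GL-1, CLGL-90 and CLL-1390 values of SGK1 were not above the ceiling. DDIT4, an inhibitor of mTOR signalling, stood at 11.37 in CL-1 and 10.86 in CLGL-90, against 7.93 to 8.96. FOXO1, a transcription factor of quiescence and survival, stood at 10.56 in CL-1 and 9.64 in CLGL-90, against 7.65 to 7.82. SGK1, DDIT4 and FOXO1 lie outside the rule for named genes and were chosen after their values were seen. PER1, the clock gene, varied by 1.02 by its brightest probe set, with its highest value in CL-1 at 9.92. Its other probe sets disagreed on the order of the lines, and some put CL-1 lowest. DUSP1, a MAP kinase phosphatase, was highest in 17-71 by all 3 probe sets, but these gave unlike ranges, 1.22, 4.71 and 2.73. PER1 and DUSP1 were likewise chosen after their values were seen.

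Further genes marked other lines. IL1R2, the decoy receptor of interleukin 1, reached 11.73 in 17-71 and 7.11 in GL-1 and no more than 5.01 to 5.89 in T-labelled lines (difference 4.03, SE 1.40, adjusted p = 0.9999 by limma). No T-labelled value of IL1R2 was above the ceiling. ZBTB16, a zinc finger transcription factor, stood at 11.24 in CLL-1390, against 6.43 to 8.07 in the others, by 1 of its 2 probe sets. By that probe set 17-71, GL-1 and CLGL-90 were not above the ceiling. The other probe set of ZBTB16 varied by 0.29. GLUL, glutamine synthetase, reached 13.19 in CLL-1390 and 12.75 in GL-1, with 8.11 to 9.19 elsewhere.

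**Figure D4:**
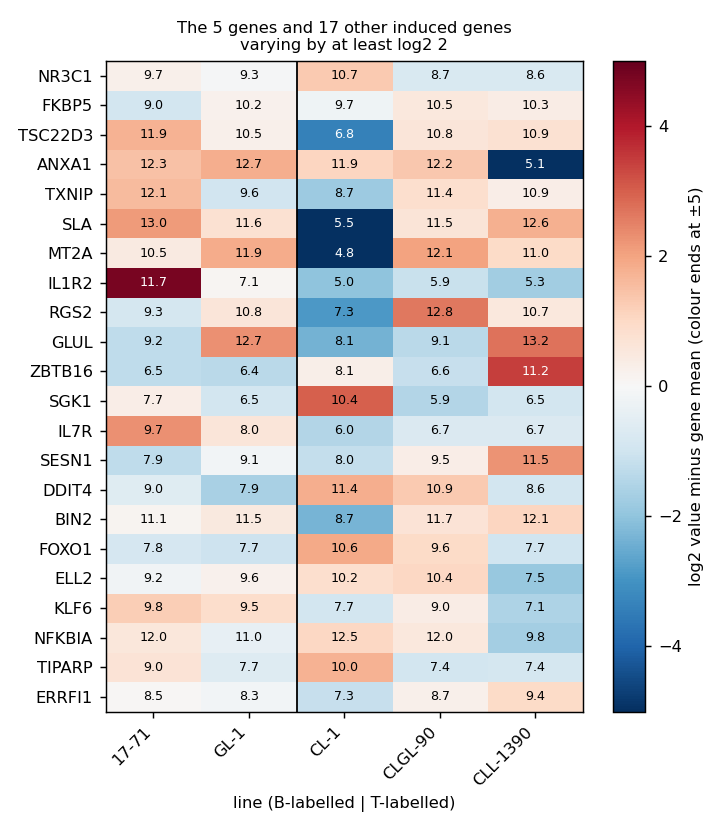
Heat map of the 5 genes (top rows) and the 17 other induced genes with a range of at least log2 2 over the 5 lines (columns, B-labelled left of the black line). Numbers are log2 GCRMA values, and colour is the value minus the gene's mean, ending at log2 5 either way. The CL-1 column holds both the lowest values (TSC22D3, SLA, MT2A) and the highest (NR3C1, SGK1, FOXO1).

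Effectors of the cell death that glucocorticoids can cause were on the array for 10 of 13 listed genes. BCL2L11, which encodes BIM, the main killer protein induced by glucocorticoids in lymphoid cells, read 6.15 to 6.89, with 4 of 5 values not above the ceiling, so that differences between lines were not measurable with this probe set. BMF, its relative, read 7.72 to 8.20 by its brightest probe set and 4.98 to 5.49, under the ceiling in every line, by the other. The probe sets thus disagreed on whether BMF gave signal. MCL1, a survival protein that BIM binds, stood at 13.24 in 17-71 and 12.21 in CLGL-90, against 10.84 to 11.21 in the other lines. BAX, a pore-forming killer protein, stood at 11.59 in CL-1, against 9.36 to 10.30. MCL1 and BAX were the 2 of 10 with a range of log2 2 (20%, against 14.2% of genes tested), and 0 of the 10 passed by limma, adjusted or unadjusted. Groups did not overlap in 3 of 10, against 15.4% of all genes: BCL2 and APAF1 were higher, and BAX lower, in B-labelled lines.

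In the TSC22 family, TSC22D1 stood at 9.42 in 17-71, 10.77 in CL-1 and 12.95 in CLL-1390, whereas TSC22D3 was highest in 17-71 and lowest in CL-1. The 4 probe sets of TSC22D1 disagreed on the order of the lines. TSC22D2 was highest in CL-1 at 10.91, against 8.97 to 9.74, and TSC22D4 varied by 0.71. Among 14 FKBP genes, 3 had a range of log2 2 (21.4%, against 14.2% of genes tested): FKBP1B (5.22 in 17-71 to 9.88 in CLGL-90), FKBP9 (9.42 in CLL-1390) and FKBP7 (6.97 in 17-71 to 9.23 in CL-1). FKBP1B and FKBP7 were lowest in 17-71, as FKBP5 was. FKBP9 was not above the ceiling in 17-71, GL-1 and CLGL-90, so these lines have no order in it. FKBP1B was not above the ceiling in 17-71.

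Most of the annexins and partners listed varied widely. Of 13 annexins and annexin partners tested, 10 had a range of log2 2 (76.9%, against 14.2% of all genes), and GL-1 was the highest line in 7 of these 10, where it was in 15.7% of all genes with such a range. ANXA6, a large annexin of membranes and vesicles, read 6.21 in CLL-1390, below the ceiling, against 9.94 to 11.76 in the other lines. ANXA11 also was lowest in CLL-1390, at 8.75, against 11.51 to 12.56. CLL-1390 was not low in every annexin: ANXA5, the phosphatidylserine binder, read 13.02 there, 13.36 in GL-1 and 12.37 in CLGL-90, against 10.23 in CL-1 and 7.27 in 17-71. ANXA2 and ANXA3 marked GL-1, at 12.72 and 12.18, with 7.21 to 8.67 for ANXA2 and 5.76 to 9.79 for ANXA3 in the other lines. The ANXA3 value in 17-71 was below the ceiling. S100A11, a binding partner of ANXA1, read 9.14 in CL-1, against 12.51 to 13.93. S100A10, the partner of ANXA2, read 7.004 in 17-71, 7.24 in GL-1 and 9.17 to 11.18 in T-labelled lines by the probe set used for it. By limma its unadjusted p was 0.00584 and its adjusted p 0.998. Some of its other probe sets had overlapping groups, and the rest set the groups further apart. By the latter, 17-71 and GL-1 read 3.89 to 5.31, under the ceiling, against 9.32 to 12.29 in T-labelled lines. FPR2, a receptor for ANXA1, read 6.53 to 7.12, near the controls in every line. Some annexins varied less: ANXA13 by 0.95, and ANXA9 and ANXA8L1, which were not on the list, by 0.28 and 0.57.

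**Figure D5:**
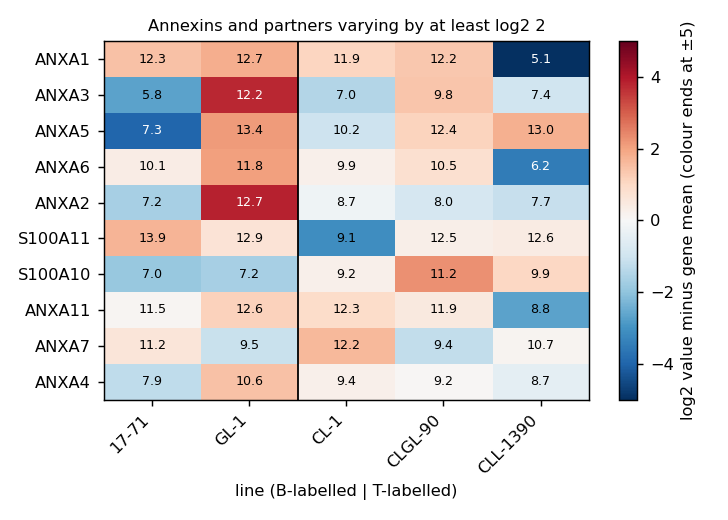
Heat map of the 10 annexins and annexin partners with a range of at least log2 2 (rows) over the 5 lines (columns, B-labelled left of the black line). Numbers are log2 GCRMA values and colour is the value minus the gene's mean, ending at log2 5 either way. ANXA1, ANXA6 and ANXA11 are lowest in CLL-1390, where ANXA5 is high.

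Around TXNIP, 19 genes of the thioredoxin system, alpha-arrestins and glucose handling were tested with TXNIP among them, and 4 had a range of log2 2 (21.1%, against 14.2% of genes tested). Groups did not overlap in 7 of the 19 (36.8%, against 15.4% of all genes), and 0 passed the adjustment by limma. TXN, thioredoxin itself, stood at 13.60 to 13.99 and PRDX1, a peroxiredoxin, at 13.08 to 13.41 over the 5 lines. The nearest relative of TXNIP, ARRDC4, also was highest in 17-71 (7.15) and lowest in CL-1 (5.63), but 4 of its 5 values were not above the ceiling. SLC2A3, the glucose transporter GLUT3, had 17-71 (13.75) and CLGL-90 (13.34) at the top and CL-1 (7.68) at the bottom, the same lines as TXNIP, with 10.00 in GL-1 and 10.59 in CLL-1390. GLRX, glutaredoxin, read 10.34 in CL-1, against 11.33 to 13.67 in the others. Of the glucose sensors of the TXNIP promoter, MLXIP (MondoA) varied by 0.28. MLXIPL (ChREBP) varied by 0.44 but was above the ceiling only in CL-1, so its differences between lines were not measurable. MLX, also among the 19, varied by 1.87 by its brightest probe set, and each of its probe sets was lowest in 17-71. Its relation to TXNIP was not tested. NLRP3, an inflammasome sensor that TXNIP can bind, was higher in B-labelled lines (7.22 in 17-71 and 8.69 in GL-1) than in T-labelled lines (6.04 to 6.51), and no T-labelled value was above the ceiling. Its adjusted p was 0.9999 by limma.

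The genes nearest to each member were found by the root mean square difference after centring over the 5 lines. NR3C1 was followed most closely by METAP1 (0.09), a methionine aminopeptidase, CASP8 (0.11), the initiator caspase of death receptors, CEP135 (0.11), FAM91A1 (0.12) and ATL3 (0.13). Such closeness is common for a gene of small range: 799 genes lay within 0.5 of NR3C1, against 3 for TSC22D3, 5 for TXNIP and 0 for ANXA1. TSC22D3 was followed by S100A11 (0.31), ARHGAP9 (0.37), RESF1 (0.42), IL2RG (0.50), the common cytokine receptor chain, and STAMBPL1 (0.61), each low in CL-1. TXNIP was followed by LOC480784 (0.36), IER2 (0.43), an immediate early gene, EDEM3 (0.45), HERPUD1 (0.47), of the endoplasmic reticulum degradation pathway, and AOAH (0.49). ANXA1 was followed by CCND2 (0.84), which encodes cyclin D2, VIM (0.91), the intermediate filament vimentin, GPR65 (0.92), SH3BP1 (1.09) and GCAT (1.10). CCND2 stood at 7.16 in CLL-1390, against 12.37 to 14.19 in the other lines, and VIM at 9.11, against 14.02 to 14.48. Over 5 lines such lists describe these arrays and carry no test.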

How the data were processed

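Each deposited value summarises a probe set's intensity on the log2 scale. The submitters' processing notes name GCRMA as the authors' method of background correction, normalization and summary; no version is given in the sources used here. The log2 scale was read from the values' range. Of 43035 probe sets, 111 Affymetrix controls were left out. Probe sets were named from the platform annotation, with symbols updated by gene ID in a RefSeq gene table of the assembly UU_Cfam_GSD_1.0 (27680 of 29254 found). Where a gene had several, the probe set with the highest mean stood for it. Testing needed log2 5 or more on 2 arrays and used limma 3.58.1 (lmFit, eBayes, two-sided; R 4.3.3), with Benjamini-Hochberg adjustment over all 14162 genes or 36661 probe sets. The depth of an array cannot be stated, and the number of arrays limits precision. Tested on simulated data for this comparison over 14162 genes, the fit recovered 0% of 200 shifts of log2 1, 47% of log2 2 with 5 false calls, 73% of log2 4 with 7, and 88% of log2 6 with 14. The shifted genes were drawn from all genes tested, whose median range is 0.76, and each kept its own spread. The 5 genes vary more than most, so these shares do not give the recovery for them.

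Levels in single lines have no replicate and carry no test. The members and lists were chosen with earlier results of these data known. Named genes were the 5 members, per list up to 6 genes of largest range that reach log2 8 and vary by log2 2, and the 5 nearest profiles of each member varying by log2 2. Genes given only to state a count, a range or a steady level were chosen after their values were seen.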

Additional observations from a re-analysis of the deposited data

How the results depend on the processing

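The 5 genes stayed short of the threshold in all alternatives run. The B-labelled minus T-labelled difference turned sign in NR3C1 when CLGL-90 formed a separate group (-0.17), and leaving out single lines it ran from -0.18 (without CLL-1390; -0.17 without CLGL-90) to 0.85; in TXNIP it ran from -0.73 (without 17-71; -0.26 without CL-1) to 1.82. Leaving out single lines gave 0.43 to 3.97 for ANXA1, 0.33 to 2.41 for TSC22D3 and -1.16 to -0.0033 for FKBP5. Over all probe sets the count past the threshold, 5, was 3 without a filter, 14 with a filter at log2 7, 3 with centred arrays, 15 with an intensity trend and robust prior, and 0 when CLGL-90 formed a separate group (1607 at an unadjusted p under 0.05) or without any 1 line (1186 to 2108 unadjusted). Over genes the count, 1, was 9 with a filter at log2 7, 8 after quantile normalization again, 8 with centred arrays, 10 with the trend, 3 with mean probe sets, 11 with the probe set of largest range, and 0 with CLGL-90 apart (622 unadjusted) or without any 1 line (474 to 767 unadjusted), all by limma. Ranges over the lines moved by under log2 0.5 when arrays were quantile-normalized once more or centred. The range of NR3C1 was 2.95 with its probe set of largest range, that of TSC22D3 3.74 with mean probe sets and 2.38 by its other probe set, that of ANXA1 5.97 with the highest non-dog controls as a floor, 6.03 with mean probe sets, and 6.99 and 3.55 by its other probe sets, and that of TXNIP 2.62 by its other probe set; the comparison with each other probe set was chosen after seeing the data. Without single lines the ranges ran from 1.03 to 2.07 in NR3C1 (lowest without CL-1), 0.73 to 1.46 in FKBP5 (without 17-71), 1.47 to 5.11 in TSC22D3 (without CL-1), 0.76 to 7.56 in ANXA1 (without CLL-1390) and 2.54 to 3.42 in TXNIP (without CL-1). Ranking profiles by Pearson correlation kept 2 of the 5 nearest genes of NR3C1 and 0 of 5 for TSC22D3, ANXA1 and TXNIP. The causes were not tested. No paired analysis was made, because the labels pair no B-labelled line with a T-labelled line.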
